A study of Chlamydomonas reinhardtii with 42 samples.

Results

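In the green alga Chlamydomonas reinhardtii, the transcriptome of cultures supplied with acetate was compared with that of cultures without it after 15 min of high light (HL) on day 1 of the experiment. The comparison rests on 6 of the 42 libraries of the series. They were taken at 255 min, and every gene with a level of at least 1 CPM, a read count divided by the library's total and scaled to a fixed size, in at least 9 of the 42 libraries entered it, which left 13886 of 17741 genes. The HSM group of 3 libraries came from wild-type strain CC-125 in HSM, Sueoka's high salt medium, in which the cells live on light and CO2 alone. The acetate group of 3 libraries came from the same strain in HSM with 20 mM acetate, given at time 0. Both groups stood in low light (LL, 5 µmol photons) until 240 min and were then moved to 300 µmol photons. The strain, the light step and the sampling time are therefore shared. The acetate supply is not, nor is the sodium added with it. Beside them stand the 6 libraries at 240 min in LL, just before the light step, the 6 at 300 min, after 60 min of HL, and the 6 at 1455 min, after 15 min of HL on day 2, all in both media. The labels number 3 samples per group and the study calls them biological triplicates. All come from 1 strain, so p-values cover the spread between these cultures only.

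When CO2 is scarce, Chlamydomonas runs a carbon concentrating mechanism (CCM), in which transporters bring bicarbonate into the cell and the chloroplast, carbonic anhydrases interconvert CO2 and bicarbonate, and CO2 is released around Rubisco in the pyrenoid. When light exceeds what carbon fixation can use, the cell dissipates energy as heat by qE, the fast part of nonphotochemical quenching, which in this alga depends on the proteins LHCSR1 and LHCSR3 and involves PSBS. Acetate enters metabolism without photosynthesis and is respired in part to CO2, and it is known to lower the expression of CCM genes. The gene lists below are the study's own lists of CCM genes, photoprotection genes, predicted regulators and transcription factors, and the first 3 of these lists hold 135 genes that were tested, called the listed genes below. Some of them are also on the list of transcription factors.

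Total counts lay between 24833894 and 26816589 in the 6 libraries, so depth was nearly equal. The composition was not. The 100 most abundant genes took between 53.5% and 63.3% of the counts of the HSM libraries and between 36.7% and 41.0% of the counts of the acetate libraries. The TMM factors, which rescale each library for such a shift, ran from 0.661 to 0.996 in HSM and from 1.29 to 1.37 in acetate, and HSM replicate 1 had both the lowest factor and the highest share in the 100 genes. All levels are therefore relative abundances in CPM after TMM, and fewer cells or less RNA per cell cannot be told apart in them. Scaled by library size alone, the median log2 difference over all genes moved from 0.04 to 0.68. Log2 fold changes between the groups of these 6 libraries would thus read higher by nearly that much. A small fall among them is then a rise, which is given beside the genes it touches. Values at other times and differences between times draw on other libraries with their own factors, so this shift does not carry over to them.

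Acetate was followed by changes in most of the transcriptome at this time. Of the 13886 genes, 9085 passed the test (edgeR's quasi-likelihood test, Benjamini-Hochberg adjusted p under 0.05), which is 65.4% of the genes tested. Of these, 4697 (33.8%) were higher with acetate and 4388 (31.6%) lower. Counts for groups of genes below are to be read against these shares. By at least 1 on the log2 scale, 2126 genes (15.3%) were higher and 2284 (16.4%) lower, and by at least 3, 80 were higher and 232 lower. In 9647 genes (69.5%) the 3 libraries of one group all lay above the 3 of the other. With library size as the only scaling, 7577 of 9314 genes called were higher, and without HSM replicate 1 it was 3631 of 8506.

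The directions were spread unevenly over the range of abundance. Among the 1345 genes with a mean under 1 CPM, 280 were higher and 348 lower, and among the 6723 genes from 1 to 10 CPM, 2309 were higher and 1953 lower. From 10 to 100 CPM the counts were 1807 higher and 1600 lower of 4776, and from 100 to 1000 CPM 285 higher and 362 lower of 879. Of the 163 genes over 1000 CPM, 16 were higher and 125 lower with acetate. Fewer of the most abundant transcripts therefore rose than fell, and by library size alone this was also so, with 38 of 170 such genes higher and 94 lower. HSM replicate 1 lay above both other HSM libraries in 129 of these 163 genes, at a median ratio of 1.51 to their mean. Without that library 13 were higher and 123 lower. In 127 of the 163 all 3 HSM libraries lay above all 3 acetate libraries, and in 19 the reverse held. Of all genes, 69.5% had no overlap in one direction or the other.

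**Figure D1:**
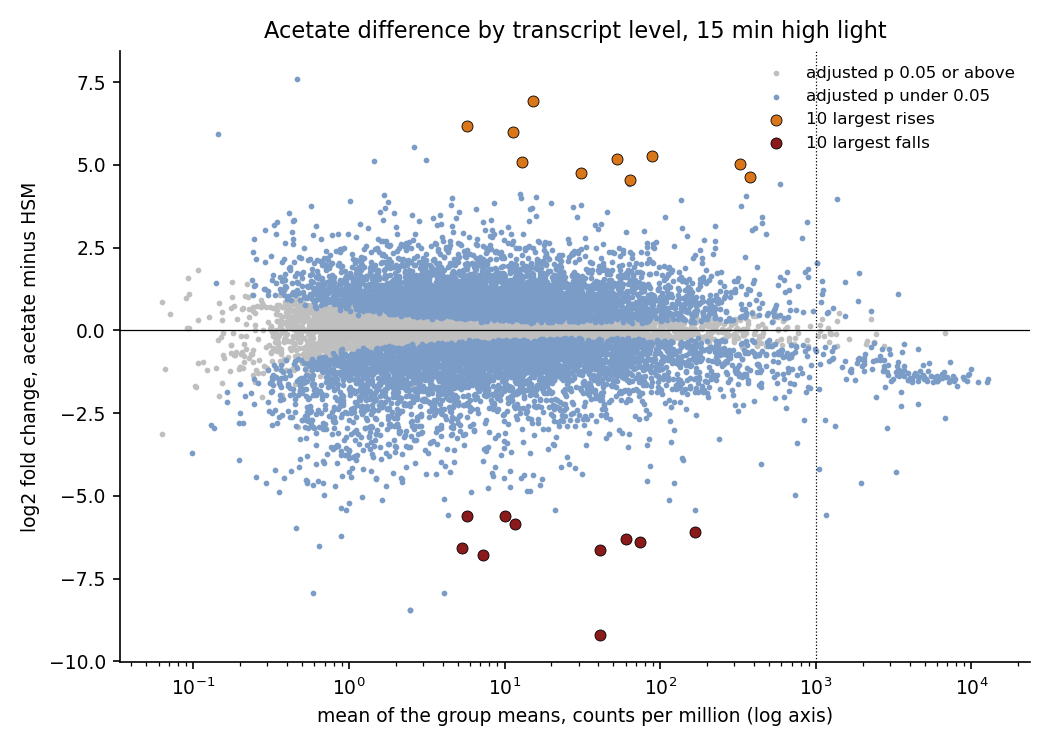
Log2 fold change (acetate minus HSM, 15 min of high light on day 1) of each of the 13886 genes against its mean level in CPM on a log axis, with genes past the threshold in blue, the others in gray, the 10 largest rises in orange and the 10 largest falls in dark red, and a dotted line at 1000 CPM. Over 1000 CPM, 125 of 163 genes lie below 0 past the threshold and 16 above.

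The CCM list was mostly lower with acetate. Of its 71 genes tested, 43 were lower and 9 higher, against 31.6% lower and 33.8% higher of all genes, and its median log2 fold change was -0.61 beside 0.04 for all genes. By library size alone 23 were lower and 19 higher and the list's median became 0.05, which is 0.62 below the median of all genes under that scaling, as against 0.65 after TMM. The carriers of inorganic carbon on this list, which need not hold all that the alga has, had 6 of 7 genes lower and none higher. Their median was -1.49, and 5 of 7 were still lower by library size alone.

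HLA3 (Cre02.g097800), an ABC transporter that takes bicarbonate across the plasma membrane, stood at 5529.6, 6073 and 7005 CPM in the HSM libraries and at 185, 567 and 208 CPM in the acetate libraries. All 3 acetate libraries lay far below all 3 HSM libraries. The fitted change was -4.28 ± 0.42 on the log2 scale, 19.4-fold lower (adjusted p = 7.02e-11). LCIA (Cre06.g309000), an anion channel of the chloroplast envelope, read 2278, 2329 and 2446 CPM in HSM and 203, 462 and 278 CPM with acetate, a change of -2.90 ± 0.45 (adjusted p = 9.00e-07). The plasma membrane channel LCI1 (Cre03.g162800) read 1755, 1769 and 1361 CPM and 356, 678 and 399 CPM, a change of -1.77 ± 0.34 (adjusted p = 2.82e-05). In all of these, acetate replicate 2 was the highest of the acetate libraries and still lay under every HSM library.

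CCP2 (Cre04.g222750), also among the listed carriers, fell by 1.49 on the log2 scale, from 2631 ± 160.3 CPM (SD, n = 3) to 937 ± 81.5 CPM (SD, n = 3). LCI11 (Cre16.g663450), a bestrophin-like channel of the thylakoid, changed by -1.28 ± 0.16, and RHP1 (Cre06.g284100), a Rhesus protein that acts as a CO2 channel, by -0.85 ± 0.23, a call that is lost by library size alone. BST1 (Cre16.g662600), a further bestrophin-like thylakoid channel, did not pass the test. It read 719, 656 and 327 CPM in HSM and 410.1, 455 and 422 CPM with acetate, so that HSM replicate 3 lay below all acetate libraries and the other HSM libraries above them (-0.40 ± 0.34, adjusted p = 0.296, and 0.30 by library size alone).

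The mitochondrial carbonic anhydrases CAH4 and CAH5 changed more than any other gene of the CCM list. CAH4 (Cre05.g248400) stood at 2363, 1558 and 2937 CPM in HSM against 23.1, 86.5 and 33.4 CPM with acetate, 48.0-fold lower (-5.58 ± 0.67, adjusted p = 6.51e-09). CAH5 (Cre05.g248450), its neighbor and near copy, read 1190.1, 1190.0 and 1918 CPM and 21.4, 85.3 and 29.0 CPM (-4.99 ± 0.56, adjusted p = 1.77e-09). Again acetate replicate 2 was the highest acetate library, and the groups lay far apart. As near copies, the 2 genes may share reads, so how the sum divides between them is uncertain.

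Of the 8 listed carbonic anhydrases tested, CAH2 to CAH9, 5 were lower and 2 higher. CAH1, the periplasmic enzyme that the study names as controlled by LCR1, is not among them. Genes outside the lists are given by ID without a symbol, so CAH1 may stand unnamed among those. CAH2 (Cre04.g223050), a periplasmic enzyme known from cells with ample CO2, read 39.5, 36.1 and 14.24 CPM in HSM and 4.91, 5.12 and 6.00 CPM with acetate (-2.48 ± 0.33, adjusted p = 5.98e-08). CAH6 (Cre12.g485050) changed by -1.46 ± 0.16 and CAH3 (Cre09.g415700), the enzyme of the thylakoid lumen, by -0.72 ± 0.12, the latter not by library size alone. CAH7 and CAH9 were the 2 that rose, to 6.89 ± 0.751 CPM from 4.86 ± 0.272 CPM and to 6.96 ± 0.423 CPM from 5.31 ± 0.122 CPM (SD, n = 3). Both calls are lost without HSM replicate 1. CAH8 (Cre09.g405750) read 108, 117 and 69.4 CPM and 122, 123 and 124 CPM and did not pass (adjusted p = 0.0673).

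All 4 genes of the LCIB family, which acts in the recapture of CO2 around the pyrenoid, were lower. LCIE (Cre04.g223250) changed most, from 54.3, 41.9 and 44.4 CPM in HSM to 2.95, 4.32 and 2.61 CPM with acetate, 14.23-fold lower (-3.83 ± 0.16, adjusted p = 8.16e-20). LCID (Cre04.g222800) read 1045, 1030.1 and 941 CPM and 209, 276 and 255 CPM (-2.03 ± 0.25, adjusted p = 7.76e-09). LCIB and LCIC act together as a complex. LCIC (Cre06.g307500) read 3791, 4089.8 and 3547 CPM and 1589, 1658 and 1826 CPM (-1.17 ± 0.20). LCIB (Cre10.g452800) read 4746, 5259 and 3146 CPM and 2663, 2762 and 2969.7 CPM (-0.65 ± 0.22, adjusted p = 0.0118), with HSM replicate 3 close to the acetate libraries. Its call is lost without HSM replicate 2, and by library size alone its value is 0.02 while the other 3 stay lower.

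Genes of Rubisco and its pyrenoid matrix were lower in 4 of 5 cases, 3 by library size alone. EPYC1 (Cre10.g436550), the linker that gathers Rubisco into the pyrenoid, read 2746, 2776 and 2523 CPM in HSM and 1302, 1167 and 1355 CPM with acetate (-1.07 ± 0.22, adjusted p = 4.91e-05). The Rubisco small subunit gene RBCS2 (Cre02.g120150) read 16901, 13182 and 11076 CPM and 7172, 5641 and 5484 CPM (-1.17 ± 0.24, adjusted p = 7.97e-05), with HSM replicate 1 the highest. RBCS1 (Cre02.g120100), its near copy, overlapped between the groups, at 2055, 1964 and 1364 CPM and 1583, 1439.6 and 1449 CPM (adjusted p = 0.152), and passes without HSM replicate 3. Reads may be divided between these copies. The Rubisco activase gene RCA1 (Cre04.g229300) changed by -0.94 ± 0.15 and lost its call by library size alone, and the pyrenoid protein gene SMM7 (Cre03.g151650) by -1.71 ± 0.23. Among 4 starch enzymes, the branching enzyme gene SBE3 (-0.74 ± 0.12) and SBE4 were lower and SBE1 higher, the last a call lost without HSM replicate 1, and by library size alone none was lower and 2 were higher. The granule-bound starch synthase gene STA2 read 1167 ± 111 CPM in HSM and 1227 ± 43.7 CPM with acetate (SD, n = 3, adjusted p = 0.694).

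Photosystem subunits and electron carriers on the list were lower in 7 of 8 cases, with 1 not called, and in 2 of 8 by library size alone, where 1 was higher. FDX1 (Cre14.g626700), the main photosynthetic ferredoxin, had 8893, 6635 and 6764 CPM in HSM and 1635, 1574 and 1507 CPM with acetate (-2.24 ± 0.27, adjusted p = 7.60e-09). CYC6 (Cre16.g651050), the cytochrome that replaces plastocyanin when copper is short, had 3.73, 1.90 and 2.06 CPM and 0.866, 1.29 and 0.785 CPM (-1.35 ± 0.31). Both were also lower by library size alone, while the photosystem I subunit gene PSAK (-1.12 ± 0.29) was not. PSBQ (Cre08.g372450), a photosystem II extrinsic subunit gene, had 557 ± 37.4 CPM and 706 ± 45.9 CPM (SD, n = 3, adjusted p = 0.157). In the remaining 30 genes of the CCM list, which encode pyrenoid proteins or proteins found with them, 12 were lower and 5 higher, turning to 4 lower and 11 higher by library size alone. They include ACP2 (Cre13.g577100), a plastid acyl carrier protein gene, at 17641, 8991 and 8435 CPM in HSM and 1944, 2072 and 1589.8 CPM with acetate (-2.65 ± 0.33, adjusted p = 1.86e-08). HSM replicate 1 stood nearly 2-fold above the other HSM libraries there, and the groups did not overlap. Cre13.g573250, which has an ID only, changed by -2.72 ± 0.30, HPR1 (Cre06.g295450), a hydroxypyruvate reductase gene of photorespiration, by -1.60 ± 0.14, and LCI24 by -1.25 ± 0.24. The rises were led by Cre16.g668200, listed with a PHD domain, at 1.54 ± 0.22.

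Of 5 regulatory genes on the CCM list, not all of them known regulators of the CCM, 3 were lower and 1 higher. LCR1 (Cre09.g399552), a MYB protein that acts below CIA5, read 133, 128 and 139.7 CPM in HSM and 30.8, 56.5 and 38.1 CPM with acetate (-1.68 ± 0.28, adjusted p = 3.36e-06), with acetate replicate 2 again the highest of its group. CIA5 (Cre02.g096300), the zinc finger regulator of the mechanism, read 109.5, 121 and 110.0 CPM and 80.0, 77.5 and 89.0 CPM (-0.47 ± 0.10, adjusted p = 7.28e-05). By library size alone its value is 0.17, so its direction depends on the scaling. The kinase gene STT7 (Cre02.g120250), which drives the movement of antenna proteins between the photosystems, was lower under both scalings, at 339.7 ± 26.2 CPM in HSM and 161 ± 16.0 CPM with acetate (SD, n = 3, -1.08 ± 0.13).

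Effectors of qE were lower in 4 of 5 cases, and the same number was lower by library size alone. LHCSR3.1 (Cre08.g367500) stood at 1369.8, 1286 and 1482 CPM in HSM and at 113, 173 and 108 CPM with acetate, 10.5-fold lower (-3.39 ± 0.43, adjusted p = 1.99e-08). LHCSR3.2 (Cre08.g367400), a near copy next to it, stood at 2048, 1838 and 2077 CPM and 279, 361 and 275 CPM (-2.70 ± 0.41, adjusted p = 5.72e-07). Acetate replicate 2 was the highest acetate library for both. PSBS1 (Cre01.g016600) stood at 161, 119 and 141 CPM and 23.1, 19.8 and 23.8 CPM (-2.66 ± 0.31, adjusted p = 3.59e-09). PSBS2 (Cre01.g016750) stood at 258, 172 and 223 CPM and 25.3, 23.6 and 32.0 CPM (-3.01 ± 0.38, adjusted p = 1.88e-08). For the PSBS pair, the 3 acetate libraries lay close together. Division of reads between the copies is uncertain in both pairs.

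LHCSR1 (Cre08.g365900) encodes the other LHCSR protein and did not pass the test. It read 364, 377 and 298 CPM in HSM and 339.6, 307 and 349 CPM with acetate, the groups overlapped, and the change was -0.06 ± 0.26 (adjusted p = 0.843). Across alternatives it ran from -0.20 to 0.59 and passed the threshold in none of them.

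**Figure D2:**
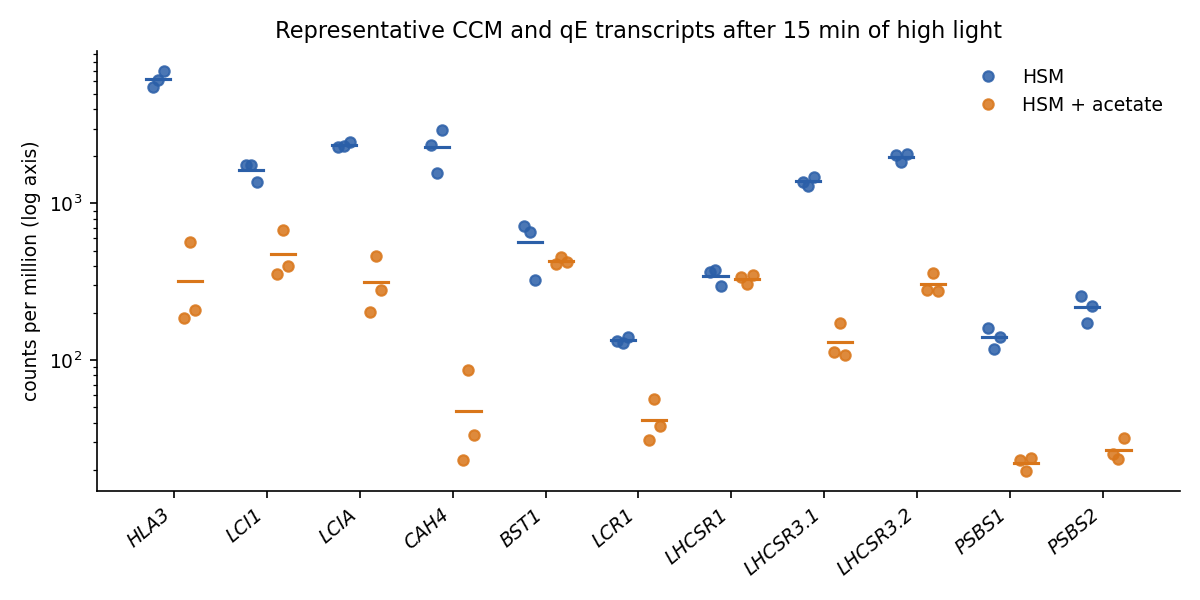
Levels of the 11 representative CCM and qE genes in each of the 6 libraries in CPM after TMM on a log axis, HSM and acetate side by side, with the group mean as a bar. The groups do not overlap in 9 of the 11 genes, beside 69.5% of all genes, and overlap in BST1 and LHCSR1.

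The antenna of photosystem II moved the other way. Of 12 antenna genes, 9 were higher with acetate and none lower, with a median of 1.13, and all 12 were higher by library size alone and 7 without HSM replicate 1. LHCBM8 (Cre06.g284250) read 40.2, 43.4 and 23.2 CPM in HSM and 179, 118 and 136 CPM with acetate (2.02 ± 0.41, adjusted p = 5.13e-05). LHCB5 (Cre16.g673650), the minor antenna protein CP26, read 169.6, 159 and 204 CPM and 732, 565 and 702 CPM (1.91 ± 0.51, adjusted p = 0.00146). LHCBM3 (Cre04.g232104) read 273, 235 and 369.9 CPM and 1039, 696 and 936 CPM (1.60 ± 0.49, adjusted p = 0.00428). In these 3 genes acetate replicate 2 was the lowest acetate library, while it was the highest in HLA3, LCIA, LCI1, CAH4, CAH5, LCR1 and both LHCSR3 genes. LHCBM6 was higher by 1.11 ± 0.29. LHCBM7 (1.49 ± 0.63, adjusted p = 0.038) loses its call without HSM replicate 1 or 2 or acetate replicate 1 or 3. LHCB4 (0.52 ± 0.23, adjusted p = 0.0459), the minor antenna protein CP29, loses its call when any library but acetate replicate 2 is left out. LHCBM1 (Cre01.g066917), among the genes known for their part in energy dissipation, overlapped at 2142, 1699.8 and 2087 CPM and 3079, 1910.3 and 2558 CPM (adjusted p = 0.437). The LHCBM genes are similar in sequence, so the level of a single copy is less certain than that of the group.

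The photoprotection list as a whole had 29 of 55 genes lower and 12 higher, against 31.6% lower and 33.8% higher of all genes, with a median of -0.41. By library size alone it had 12 lower and 25 higher, a median of 0.20, 0.48 below that of all genes, as against 0.45 after TMM. Of the xanthophyll cycle, the zeaxanthin epoxidase gene ZEP1 (Cre02.g082550) read 459, 447 and 454 CPM and 286, 281 and 275 CPM (-0.69 ± 0.13, adjusted p = 2.09e-05), a call not made by library size alone. VDR1 changed by -0.47 ± 0.18, reads 0.17 by library size alone, and loses its call without HSM replicate 3 or acetate replicate 2. Among 5 early light-inducible proteins, ELI4 (Cre05.g247400) rose from 4.51 ± 1.58 CPM to 12.9 ± 2.299 CPM (SD, n = 3, 1.54 ± 0.22), and ELI2 (-1.12 ± 0.14) and ELI5 (-0.64 ± 0.25) were lower, the last not without HSM replicate 3 or acetate replicate 1. By library size alone 3 of the 5 were higher and 1 lower. In the singlet oxygen response, PSBP2 (Cre16.g678851) fell from 5.68, 3.72 and 4.00 CPM to 0.289, 0.912 and 0.561 CPM (-2.91 ± 0.25, adjusted p = 5.78e-12). The bZIP gene SOR1 (-0.41 ± 0.16) reads 0.20 by library size alone and loses its call without HSM replicate 2 or 3 or acetate replicate 3. SAK1, a further bZIP regulator of the acclimation to singlet oxygen, did not pass (-0.23 ± 0.13, adjusted p = 0.108). It is called lower with RLE, with DESeq2, under the stricter filter and without HSM replicate 1, and higher by library size alone (0.42), so its direction depends on the scaling.

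The E3 ubiquitin ligase built on CUL4 marks light regulators for degradation, with COP1 and SPA1 as its substrate arm. The gene listed as COP1 (Cre01.g002500) read 1623, 1332 and 1262 CPM in HSM and 362, 474 and 435 CPM with acetate (-1.73 ± 0.20, adjusted p = 1.76e-09). COP is also the stem of photoreceptor symbols, such as COP3 and COP4 below, so whether this gene encodes the ligase subunit is uncertain. SPA1 (Cre13.g602700) read 38.7, 34.8 and 42.9 CPM and 15.0, 11.09 and 15.3 CPM (-1.49 ± 0.15, adjusted p = 1.08e-10). DET1 (Cre13.g571560) read 19.5, 18.9 and 16.6 CPM and 6.81, 6.35 and 7.32 CPM (-1.42 ± 0.19, adjusted p = 8.56e-08). These 3 were lower under both scalings. DDB1 (-0.51 ± 0.20) reads 0.10 by library size alone and loses its call without HSM replicate 3 or acetate replicate 2. The ubiquitin-conjugating enzyme gene UBC17 (Cre06.g292800) rose, from 24.2, 24.4 and 18.6 CPM to 77.9, 68.8 and 72.5 CPM (1.71 ± 0.17, adjusted p = 1.48e-10), and CUL4 itself stood at 16.3 ± 1.19 CPM and 16.1 ± 0.465 CPM (SD, n = 3, adjusted p = 0.897). Scaled by library size, CUL4 is called higher (0.61).

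The CONSTANS homolog CRCO (Cre06.g278159), which binds with NF-Y factors at promoters of LHCSR and PSBS genes, read 700.0, 767 and 702 CPM in HSM and 469, 487 and 489.5 CPM with acetate (-0.59 ± 0.10, adjusted p = 8.53e-06). NF-YB changed by -0.47 ± 0.11 and NF-YC by -0.86 ± 0.19. With library size as the only scaling CRCO reads 0.05 and NF-YB 0.18, neither past the threshold. ROC75, a clock gene, did not pass (0.38 ± 0.19, adjusted p = 0.0724).

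Among 14 photoreceptor genes, 9 were lower and 1 higher, turning to 2 lower and 5 higher by library size alone. CRY-DASH1 (Cre02.g078939), a cryptochrome, read 10.0, 10.09 and 9.38 CPM and 3.35, 4.82 and 3.98 CPM (-1.28 ± 0.16, adjusted p = 2.09e-08), and COP6 changed by -1.205 ± 0.17, both lower under both scalings. The channelrhodopsin genes COP3 and COP4, which serve the eyespot, changed by -0.76 ± 0.13 and -1.15 ± 0.19, and neither was called by library size alone. PHOT1 (Cre03.g199000), the blue light receptor known to act upstream of LHCSR3, read 260.5, 290.5 and 256 CPM and 225, 211 and 217 CPM (-0.31 ± 0.10, adjusted p = 0.0106). It reads 0.33 by library size alone and loses its call without HSM replicate 2. The UV-B receptor gene UVR8 did not pass (0.15 ± 0.11, adjusted p = 0.221). The single rise was that of COP8 (Cre07.g329900), from 1.89, 2.399 and 3.68 CPM to 6.55, 6.59 and 6.51 CPM (1.28 ± 0.17, adjusted p = 5.14e-08).

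**Figure D3:**
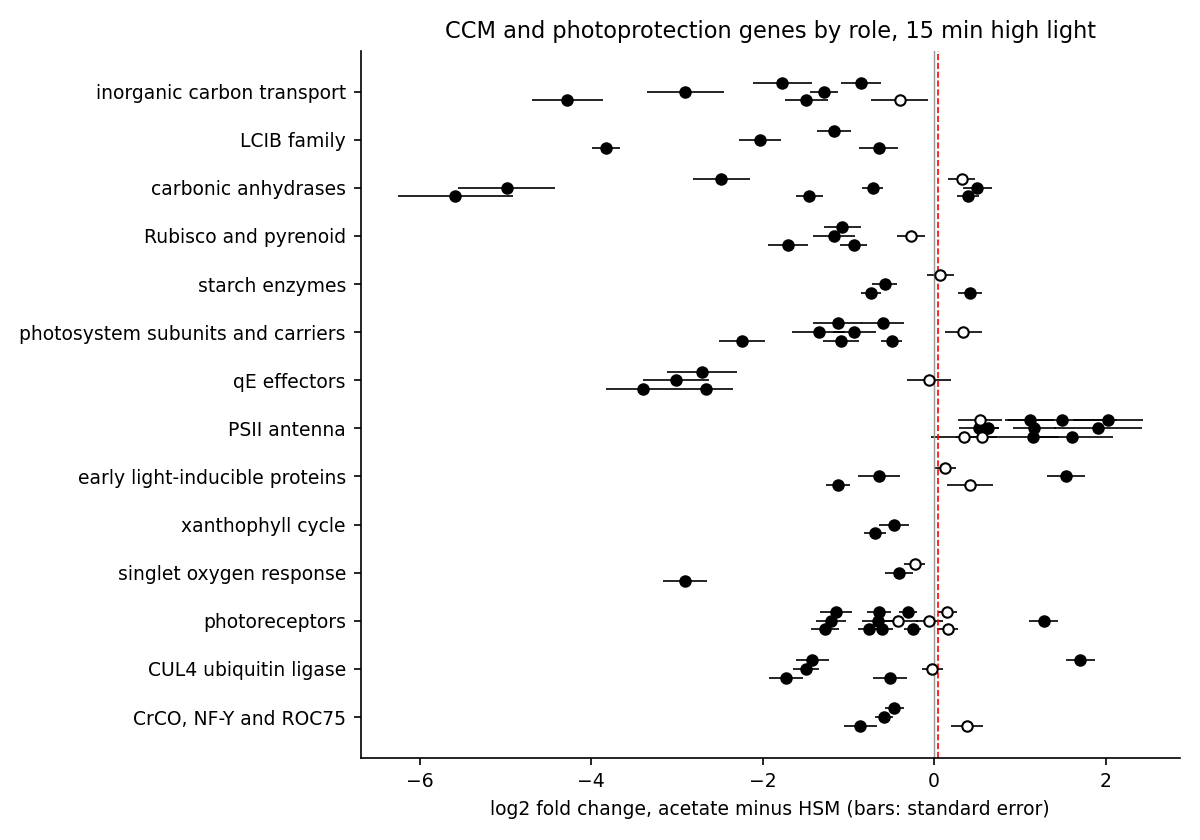
Log2 fold change (acetate minus HSM) with its standard error for the genes of each role on the CCM and photoprotection lists, with genes past the threshold filled and the median over all 13886 genes as a dashed line. Antenna genes lie to the right of the line (median 1.13), and inorganic carbon transport (median -1.49), the LCIB family (median -1.60) and qE effectors (median -2.70) to its left.

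Of 371 transcription factors tested, 141 were higher and 96 lower, against 33.8% higher and 31.6% lower of all genes, with a median of 0.17 beside 0.04 for all genes. Scaled by library size, 227 were higher and 26 lower, and without HSM replicate 1 109 were higher and 112 lower. Families are given as counts, to be read against the same shares of all genes and without a test. The bHLH family had 6 of 8 members higher and 1 lower, PHD proteins 6 of 8 higher and 1 lower, SNF2 proteins 8 of 13 higher and 3 lower and SET proteins 7 of 13 higher and 1 lower. All 3 CPP and all 3 Nin-like genes were higher. The C2C2-GATA family had 5 of 7 lower and none higher and the TRAF family 12 of 26 lower and 5 higher, and by library size alone these became 2 lower and 2 higher for C2C2-GATA and 3 lower and 13 higher for TRAF.

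Single factors changed by several log2 units. The GATA factor Cre03.g160700 read 10.5, 11.7 and 9.54 CPM in HSM and 0.0289, 0.147 and 0.140 CPM with acetate (-6.58 ± 0.64, adjusted p = 6.05e-11), the largest fall of a factor by the rule used. The bZIP factor Cre14.g631750 read 23.4, 14.36 and 15.7 CPM and 0.866, 1.71 and 1.29 CPM (-3.78 ± 0.29). The TRAF genes Cre04.g219600 (-2.27 ± 0.19) and Cre06.g278184 (-1.74 ± 0.21) and the RWP-RK gene RWP5 (-2.04 ± 0.22) followed. The largest rise was that of the CPP factor Cre08.g361400, from 2.90, 2.61 and 1.496 CPM to 15.3, 11.6 and 14.33 CPM (2.58 ± 0.24, adjusted p = 3.20e-11). The WRKY factor Cre12.g517451 read 3.02, 3.19 and 2.22 CPM and 17.2, 13.1 and 14.0 CPM (2.3997 ± 0.18). The CO-like factor Cre16.g675100 (2.34 ± 0.26), the PHD gene Cre06.g262800 (2.31 ± 0.22) and the HMG gene Cre06.g261450 (2.07 ± 0.28) were next. All 10 kept their call and direction in every alternative that tested them, and the stricter filter did not test Cre03.g160700.

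The study also predicted 14 regulators from networks that used these libraries, so their movement is not independent evidence about them. Of the 12 that were tested, 4 were higher and 3 lower, near the shares of all genes (33.8% and 31.6%), with a median of 0.05. RWP14 (Cre01.g000050), of the Nin-like family, read 1.07, 1.24 and 0.971 CPM in HSM and 2.80, 2.82 and 2.497 CPM with acetate (1.303 ± 0.27). QER4 rose by 0.97 ± 0.15 and QER2 by 0.94 ± 0.18, while QER7 changed by -0.80 ± 0.21, a call lost by library size alone. LCI8 (Cre02.g144800), an N-acetyltransferase, did not pass, at 61.9, 55.3 and 42.3 CPM and 49.95, 47.6 and 52.2 CPM (adjusted p = 0.534). Library size as the only scaling makes it higher (0.58).

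Over the whole transcriptome, the largest changes were in genes for which the tables at hand give an ID and no name. The genes that rose most, among those with a mean of at least 10 CPM in the higher group, lay between 0.155 and 29.2 CPM on average without acetate. Cre17.g700950 read 0.178, 0.372 and 0.162 CPM in HSM and 33.1, 22.5 and 35.5 CPM with acetate (6.94 ± 0.38, adjusted p = 7.91e-17). Cre14.g615400 read 0.178, 0.207 and 0.0809 CPM and 10.9, 10.18 and 13.0 CPM (6.18 ± 0.42). Cre14.g625650 (5.98 ± 0.21) and Cre14.g625600 (5.07 ± 0.22) followed a like course from under 1 CPM. At higher levels, Cre03.g144807 rose from 15.9, 20.9 and 20.7 CPM to 639, 554 and 698 CPM, 32.8-fold (adjusted p = 2.55e-18). Cre17.g702900 rose from 31.2, 37.7 and 18.7 CPM to 765, 694 and 727 CPM, 24.96-fold. Cre01.g053000, Cre15.g636800, Cre03.g165700 and Cre16.g686750 completed the 10, with rises of 5.26, 5.17, 4.74 and 4.55 on the log2 scale.

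Among the 10 largest falls under the same limit of at least 10 CPM in the higher group, some rested on uneven HSM libraries. Cre12.g555700 read 22.2, 26.4 and 196 CPM in HSM and 0.0866, 0.206 and 0.112 CPM with acetate (-9.196 ± 1.39, adjusted p = 5.44e-07). Cre10.g426800 read 97.9, 81.1 and 261 CPM and 1.01, 2.56 and 1.63 CPM (-6.403 ± 0.55). In both, HSM replicate 3 carried most of the HSM mean, and the groups were still far apart. Cre10.g439500 was more even, at 119, 99.2 and 140.5 CPM and 1.24, 2.38 and 0.926 CPM (-6.302 ± 0.34, adjusted p = 4.43e-17). Cre12.g554100 read 319, 303 and 365 CPM and 2.34, 8.85 and 3.28 CPM (-6.09 ± 0.44), with acetate replicate 2 the highest of its group. The others were Cre36.g759747 (-6.80 ± 0.58), Cre03.g204577 (-6.62 ± 0.50), the GATA factor Cre03.g160700 given above, Cre05.g245500 (-5.85 ± 0.30), Cre13.g577352 (-5.60 ± 0.45) and Cre02.g144734 (-5.60 ± 0.41).

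In 51 genes past the threshold, all libraries of one group held at most 3 counts, 34 with acetate and 17 in HSM. For these the change is a lower bound against a floor of 3 counts per library. Cre07.g334150 was at least 94.4-fold lower with acetate and Cre01.g008350 at least 37.8-fold higher.

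Just before the light step, at 240 min in LL, acetate already set the groups apart, with 8998 genes past the threshold (64.8%). Of all genes tested, 6334 were called at both times in the same direction and 390 in opposite directions, while 2361 were called at 255 min only and 2274 at 240 min only. A call at a single time does not show a difference between times, so the change of the acetate response over the 15 min of HL was tested itself. It passed in 4031 genes (29.0%), with the response more positive in HL in 1953 (14.1%) and more negative in 2078 (15.0%). Without HSM replicate 1 at 255 min the former were 1215, and by library size alone the latter were 794. Of the 135 listed genes it passed in 55, more positive in 39 and more negative in 16. Since both media were moved to HL, this is also the test of whether the light response differed between the media.

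Among the genes of inorganic carbon uptake, the gap between the media narrowed for some and did not change past the threshold for others. LCI1 stood at 87.2 ± 33.6 CPM in HSM and 1.14 ± 1.25 CPM with acetate at 240 min in LL (SD, n = 3), a log2 fold change of -6.18, and at -1.77 after 15 min of HL, so the response differed by 4.41 ± 0.53 (adjusted p = 1.17e-07). LCIA went from -5.95 to -2.90 (difference 3.04 ± 0.65, adjusted p = 0.00055). In both, the mean level was higher in HL than in LL in both media. BST1 went from -4.01 to -0.40, a difference of 3.61 ± 0.53 (adjusted p = 3.07e-06), and LCR1 from -4.43 to -1.68, a difference of 2.75 ± 0.42 (adjusted p = 7.66e-06). HLA3 went from -4.78 to -4.28 and CAH4 from -6.75 to -5.58, and neither difference passed (0.51 ± 0.52, adjusted p = 0.497, and 1.17 ± 0.84, adjusted p = 0.31). LCIE went the other way. It lay at 1.84 ± 0.294 CPM and 1.24 ± 0.219 CPM in LL (SD, n = 3), a change of -0.58, and at -3.83 after HL, a difference of -3.25 ± 0.26 (adjusted p = 4.59e-11). CAH2 also had a negative difference ( -1.62 ± 0.45, adjusted p = 0.00604).

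Among the qE genes, both positive and negative differences occurred. LHCSR3.1 lay at 22.2 ± 14.9 CPM in HSM and 0.394 ± 0.341 CPM with acetate in LL (SD, n = 3), and its log2 fold change went from -5.70 to -3.39 (difference 2.31 ± 0.70, adjusted p = 0.0115). LHCSR3.2 went from -5.99 to -2.70 (difference 3.28 ± 0.63, adjusted p = 0.000157). The PSBS genes were near 0 in LL in both media. PSBS1 lay at 0.274 ± 0.144 CPM and 0.265 ± 0.0528 CPM (SD, n = 3), did not differ by the test there (-0.06, adjusted p = 0.949), and was 6.303-fold lower with acetate after 15 min of HL (difference -2.59 ± 0.84, adjusted p = 0.0181). That difference does not pass without acetate replicate 1 at 240 min or with limma-voom. For PSBS2 the difference was -1.90 ± 1.14 and did not pass (adjusted p = 0.212). LHCSR1 was higher with acetate in LL, by 1.32 on the log2 scale from a level of 1.96 ± 0.195 CPM in HSM (SD, n = 3), and showed no difference past the threshold in HL (difference between the times -1.38 ± 0.41, adjusted p = 0.0111). This difference does not pass without acetate replicate 3 at 240 min, by library size alone or with limma-voom.

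Of the 135 listed genes, 5 were past the threshold at both times with opposite signs, beside 390 of all 13886 genes tested. Such a change of sign was thus not particular to the listed genes. DET1 went from 1.23 in LL to -1.42 in HL, RWP5 from 0.76 to -2.04, CRY-DASH1 from 0.69 to -1.28 and ELI5 from 1.75 to -0.64. All 4 differences are negative. DET1, for example, went from 1.04 ± 0.309 CPM to 18.3 ± 1.5001 CPM in HSM and from 2.46 ± 0.04997 CPM to 6.83 ± 0.484 CPM with acetate (SD, n = 3). Cre02.g103800, a regulatory gene on the CCM list, went from -0.72 to 0.92.

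**Figure D4:**
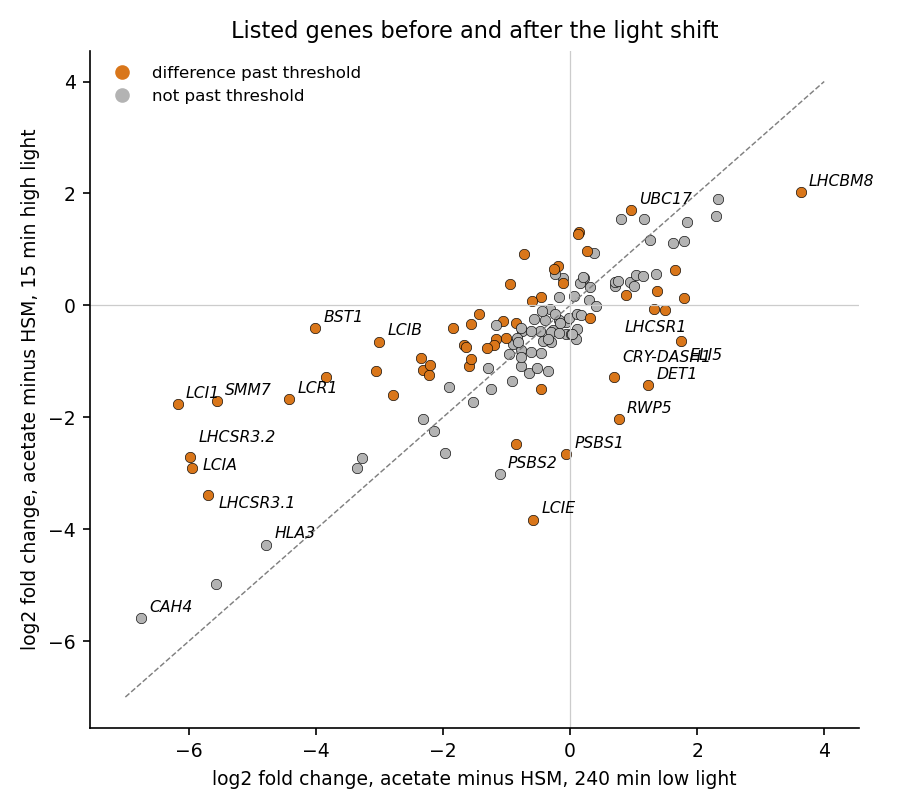
Log2 fold change (acetate minus HSM) after 15 min of high light against that at 240 min in low light for the 135 listed genes, with genes whose difference between the times passed the threshold in orange, the others in gray, the line of equal change dashed, and some genes labeled. LCI1, LCIA, BST1, LCR1 and LHCSR3 lie above the diagonal and PSBS1 and LHCSR1 below it.

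Across all genes, the largest positive differences from LL were those of Cre05.g236650 (5.14 ± 0.56), Cre12.g535250, Cre10.g447767 (4.58 ± 0.42), LCI1 and Cre26.g756747 (4.2005 ± 0.72). Cre12.g535250 had 0 counts in all acetate libraries in LL, where it was at least 18.7-fold lower than in HSM, so its fitted difference is no bound, and its call is lost without any one of these 3 libraries. Cre10.g447767 crossed sides. It lay at 27.9 ± 4.08 CPM in HSM and 5.71 ± 0.532 CPM with acetate in LL, and at 3.72 ± 1.63 CPM and 18.1 ± 4.63 CPM in HL (SD, n = 3). The largest negative differences were those of Cre36.g759747 (-4.81 ± 0.99), Cre09.g394658 (-4.53 ± 0.91), Cre17.g703300 (-4.43 ± 0.59), Cre10.g428966 (-4.19 ± 0.40) and Cre10.g439500 (-4.102 ± 0.47). Cre17.g703300 stood at 1.04 ± 0.0982 CPM and 1.18 ± 0.111 CPM in LL, and at 20.5 ± 2.88 CPM in HSM and 1.07 ± 0.357 CPM with acetate in HL (SD, n = 3).

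At 60 min of HL the acetate response had 6965 genes past the threshold (50.2%), and 4373 genes (31.5%) differed in response between 15 and 60 min. Of the 135 listed genes 48 differed, with the response more negative at 15 min in 38 and more positive in 10. Over all genes it was more negative in 1935 (13.9%) and more positive in 2438 (17.6%), the latter being 1480 without HSM replicate 1 at 255 min. CAH4 reached 5036 ± 611 CPM in HSM and 2267 ± 202 CPM with acetate at 60 min (SD, n = 3), a log2 fold change of -1.15 that did not pass (adjusted p = 0.0837), against -5.58 at 15 min (difference -4.43, adjusted p = 8.80e-05). HLA3 reached 4458 ± 142 CPM and 3024 ± 122 CPM (SD, n = 3), a change of -0.56 (adjusted p = 0.206) and a difference of -3.72 (adjusted p = 2.61e-06). LHCSR3.1 reached 1739.8 ± 122 CPM and 1139 ± 29.2 CPM (SD, n = 3), a change of -0.61 (adjusted p = 0.197) and a difference of -2.78 (adjusted p = 0.000281). These 3 genes had passed the test at 15 min and did not at 60 min, and each of the differences passed. Their means were still lower with acetate at 60 min, so the missing calls do not show that the gap had closed. PSBS1 lay at 3.48 ± 0.418 CPM and 4.02 ± 0.483 CPM by 60 min (SD, n = 3), so of 240 min in LL and 15 and 60 min of HL on day 1, its gap passed the test at 15 min only (difference -2.86, adjusted p = 1.05e-05), and PSBS2 had a difference of -2.32 (adjusted p = 0.00128). LCR1 lay at -1.94 (difference 0.26, adjusted p = 0.643).

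The largest differences between 15 and 60 min across all genes were the falls of Cre12.g555700 (-6.95), Cre36.g759747 (-5.96), Cre03.g160700 (-4.98), Cre10.g426800 (-4.95) and Cre02.g144650 (-4.44), all lower with acetate at 15 min by far more than at 60 min. Cre02.g144650 read 189, 215 and 262 CPM in HSM and 3.38, 11.4 and 4.40 CPM with acetate at 15 min and had reached 205 ± 30.8 CPM and 128 ± 4.08 CPM at 60 min (SD, n = 3). On the positive side stood Cre17.g700950 (3.58), Cre08.g372200 (3.36), Cre04.g214500 (2.89), Cre09.g387726 (2.89) and Cre17.g741150 (2.70). Cre04.g214500 read 17.3, 18.8 and 13.9 CPM and 240.3, 233 and 292 CPM at 15 min, 15.3-fold higher with acetate, and differed by 1.05 on the log2 scale at 60 min.

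At the same point of the light step on day 2, 9842 genes were past the threshold (70.9%), and 5514 (39.7%) differed in response between the days. Of the 135 listed genes 71 differed, with the response more positive on day 1 in 50 and more negative in 21, beside 21.4% and 18.3% of all genes. HLA3 lay at 8024 ± 1247 CPM in HSM and 19.3 ± 2.14 CPM with acetate on day 2 (SD, n = 3), a change of -8.70 against -4.28 on day 1 (difference 4.42, adjusted p = 3.95e-08). LCIA lay at -11.18 (difference 8.28, adjusted p = 1.71e-11) and LCI1 at -13.26 (difference 11.49, adjusted p = 1.36e-15), where LCI1 had a mean of 0.186 ± 0.0946 CPM with acetate (SD, n = 3). LCR1 had 2, 3 and 1 counts in the acetate libraries of day 2, at least 1968-fold lower than in HSM, so its difference of 9.78 is no bound. LHCSR3.1 lay at -7.03 on day 2 (difference 3.64, adjusted p = 4.33e-06), while PSBS1 (-2.14, difference -0.51, adjusted p = 0.34) and LHCSR1 (-0.12, difference 0.06, adjusted p = 0.92) showed no difference past the threshold.

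**Figure D5:**
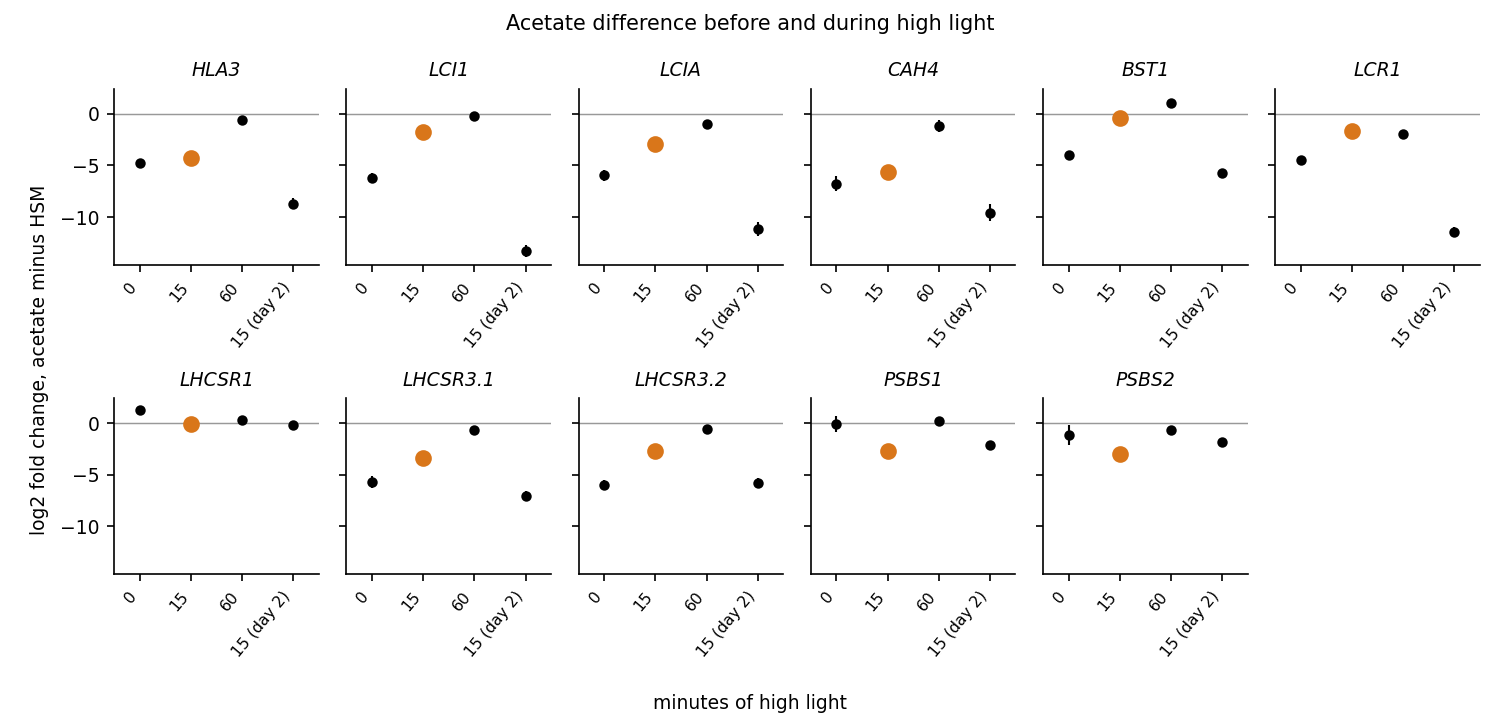
Log2 fold change (acetate minus HSM) with its standard error for the 11 representative genes at 240 min in low light, after 15 min and 60 min of high light on day 1 and after 15 min of high light on day 2, with 15 min on day 1 in orange. HLA3 goes from -4.28 at 15 min to -0.56 at 60 min of day 1 and to -8.70 on day 2, and LHCSR1 from 1.32 in low light to -0.06 at 15 min of high light.

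Across all genes, the largest positive differences between day 1 and day 2 were those of LCI1, LCR1, Cre04.g223100 (9.00), Cre10.g452250 and Cre02.g112333. Cre04.g223100 read 3570.4, 3507 and 4166 CPM in HSM and 77.3, 307 and 73.1 CPM with acetate on day 1, and 4539 ± 228 CPM and 0.360 ± 0.0667 CPM on day 2 (SD, n = 3). Cre10.g452250 and Cre02.g112333 held at most 1 count in each acetate library of day 2, at least 50.8-fold and at least 2948-fold lower than in HSM. The largest negative differences between the days were those of Cre12.g546600 (-5.70), Cre01.g011630 (-5.45), Cre06.g302950 (-5.29), Cre03.g177250 (-5.27) and Cre12.g541400 (-4.93). Cre12.g541400 crossed sides, at 17.4 ± 2.35 CPM in HSM and 3.92 ± 1.17 CPM with acetate on day 1 and 23.2 ± 1.46 CPM and 159.6 ± 7.96 CPM on day 2 (SD, n = 3). All these differences share the 6 libraries at 255 min, so they are not independent of each other. Libraries of different times may also come from the same cultures, which these tests do not take into account.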

How the data were processed

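RNA from 42 samples in 14 conditions was sequenced as stranded mRNA libraries. The study sampled cultures at several times and moved part of them to HL. The labels do not say which libraries share a culture, and the main fit treats all of them as separate. The authors trimmed reads with BBduk, aligned them to the Phytozome version 5 assembly with STAR 2.5.3 (per the submitters' processing notes), counted them per gene with HTSeq-count for the reverse strand, and deposited raw counts. Groups and replicate numbers come from the sample labels. Of 17741 genes, those with at least 1 CPM in at least 9 of 42 libraries (13886) were given TMM factors, and the quasi-likelihood test of edgeR 4.0.16 in R 4.3.3 was run with all 42 libraries in a single fit and a coefficient per condition. Differences of acetate responses are contrasts of that fit. Adjusted p-values are Benjamini-Hochberg over all genes tested, with a threshold of 0.05. Errors of log2 fold changes are standard errors from that fit, and levels are mean ± SD. No replicate pair agreed within sampling noise (chi-square per degree of freedom 12.5 to 86.8).

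Alternatives were RLE, library size only, no filter, at least 1 CPM in at least 36 libraries, DESeq2 1.42.0, limma-voom 3.58.1, a fit on the libraries of the contrast alone, a block for the replicate number or for the bracketed number of the titles, and omission of each of the 6 libraries in turn. Leaving out libraries of the other times was added after seeing the data. On simulated counts of the 13886 genes for this comparison, edgeR recovered 169 of 200 genes changed 2-fold, with 8 false calls. All other genes were set equal between the groups there, so these false calls do not cover the shift in composition of the real libraries. The simulated spread followed the trend over level and not each gene's own spread. No simulated library was made to stand apart as HSM replicate 1 does. Recovery and false calls may therefore differ in the real data.

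The members and lists were chosen with earlier results of these data known. Genes named are the study's 11 representative CCM and qE genes, the 10 largest rises and falls with at least 10 CPM in the higher group and no overlap between groups, up to 4 per direction in each list with its defining enzymes, 5 transcription factors per direction, and 5 genes per direction for each difference. Other members shown were chosen after their values were seen. Symbols come from the study's supplementary files. The RefSeq annotation of assembly version 5.5 gave only the order of neighboring genes (13885 of 13886 matched). Figures were drawn with matplotlib 3.10.9.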

Additional observations from a re-analysis of the deposited data

Results flagged for a closer look

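The acetate response at 15 min of HL on day 1 differed from that at other times by a test of the difference itself. It differed from that at 240 min in LL in 4031 genes (29.0% of those tested) and from that after 60 min of HL in 4373 (31.5%). From that after 15 min of HL on day 2 it differed in 5514 genes (39.7%). A positive difference below means that acetate minus HSM was more positive at 15 min of HL on day 1.

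Against LL, 8 of the 11 representative genes passed. Those with a positive difference were LCI1 (4.41), BST1 (3.61), LHCSR3.2 (3.28), LCIA (3.04), LCR1 (2.75) and LHCSR3.1 (2.31), and those with a negative one were PSBS1 (-2.59) and LHCSR1 (-1.38). The largest differences over all genes were those of Cre05.g236650 (5.14), Cre12.g535250 (5.03, no bound, as its acetate libraries in LL held 0 counts), Cre10.g447767 (4.58) and Cre26.g756747 (4.2005) on the positive side and of Cre36.g759747 (-4.81), Cre09.g394658 (-4.53), Cre17.g703300 (-4.43), Cre10.g428966 (-4.19) and Cre10.g439500 (-4.10) on the negative side. Opposite signs at the 2 times were seen in 5 of the 135 listed genes, beside 390 of all 13886 genes. The 5 differed by -2.80 (RWP5), -2.65 (DET1), -2.39 (ELI5), -1.97 (CRY-DASH1) and 1.65 (Cre02.g103800).

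Against 60 min of HL, all representative genes past the threshold had a negative difference: CAH4 (-4.43), HLA3 (-3.72), PSBS1 (-2.86), LHCSR3.1 (-2.78), PSBS2 (-2.32), LHCSR3.2 (-2.13), LCIA (-1.92), LCI1 (-1.59) and BST1 (-1.46). Over all genes the largest were Cre12.g555700 (-6.95), Cre36.g759747 (-5.96), Cre03.g160700 (-4.98), Cre10.g426800 (-4.95) and Cre02.g144650 (-4.44), and on the positive side Cre17.g700950 (3.58), Cre08.g372200 (3.36), Cre04.g214500 (2.89), Cre09.g387726 (2.89) and Cre17.g741150 (2.70).

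Against day 2, the representative genes past the threshold had a positive difference: LCI1 (11.49), LCR1 (9.78), LCIA (8.28), BST1 (5.33), HLA3 (4.42), CAH4 (3.98), LHCSR3.1 (3.64) and LHCSR3.2 (3.08). Over all genes Cre04.g223100 (9.00), Cre10.g452250 (8.95) and Cre02.g112333 (8.82) were next on that side, where LCR1, Cre10.g452250 and Cre02.g112333 held at most 3 counts in each acetate library of day 2 and their values are no bounds. On the negative side stood Cre12.g546600 (-5.70), Cre01.g011630 (-5.45), Cre06.g302950 (-5.29), Cre03.g177250 (-5.27) and Cre12.g541400 (-4.93).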

How the results depend on the processing

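The count of genes past the threshold at 255 min ran from 7193 (stricter filter, 10585 genes) to 9621 (no filter, 17305 genes), and from 8427 to 8663 without any 1 of the 6 libraries, beside 9085. Library size alone moved the split to 7577 higher and 1737 lower. It left 2421 differences from LL (794 negative), 3953 positive and 578 negative differences from 60 min of HL, and 1888 positive differences from day 2. The stricter filter left 1547 and 1922 positive differences from 60 min and from day 2. When a library was left out, positive differences from LL ran from 1215 (without HSM replicate 1 at 255 min) to 1865, and those from 60 min of HL from 1480 (without the same library) to 2631. The cause was not tested.

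Under that scaling these medians, and these values of genes called under either scaling, turned from negative to positive on the log2 scale: the CCM median (0.054), the photoprotection median (0.20), CRY-DASH2 (0.57), NF-YB (0.18), CIA5 (0.17), LCI8 (0.58), LCI34 (0.49), PHOT1 (0.33), RWP8 (0.36), FTT2 (0.24), PSBR (0.17), Cre06.g261750 (0.054), CRCO (0.052, and 0.0095 for its difference from 60 min), pCry (0.39), SOR1 (0.20), PSAH (0.057), SBE4 (0.066), VDR1 (0.17), Cre09.g394621 (0.50), Cre09.g416850 (0.25), DDB1 (0.10), LCIB (0.021), CAS (0.51), PSBP3 (0.14), CUL4 (0.61), Cre16.g681238 (0.13), COP10 (0.0077) and SAK1 (0.42). The median of the transcription factors turned to -0.027 under the stricter filter. None of the other alternatives run reversed a called value of a named gene at 255 min.

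Replicate numbers did not pair the samples (correlations of deviations 0.07, -0.14 and -0.04). Samples of the compared groups that share a bracketed number had correlations of 0.06 and 0.15. The fit with the replicate number as a block called 9109 genes, and the one with the bracket number 8992. With 3 libraries per group, an exact permutation test cannot go below 0.1, so single genes rest on the fit across all genes. The chi-square per degree of freedom between libraries ran from 29.5 to 86.8 in HSM and from 12.5 to 30.2 with acetate. Low genes have wide errors, with a median standard error of 0.39 under 1 CPM against 0.15 from 10 to 100 CPM. At this depth a gene with at most 3 counts in each library of a group has only a bound.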

Other observations

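Strong changes in the same direction were counted in neighboring genes. In the gene order of the RefSeq annotation, the log2 fold changes of adjacent genes had a Pearson's r of 0.12 over 11521 pairs, against 0.02 over 10972 pairs that lie 10 genes apart, a description across genes, which are not independent. Whatever their adjusted p, both members changed by at least 2 in the same direction in 98 adjacent pairs and in 39 pairs 10 genes apart. Runs of at least 3 such genes, each also past the threshold, numbered 10, with 33 genes in all. The genes of 8 runs were lower with acetate and those of 2 runs higher.

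LCIE opened a run with Cre04.g223300, which went from 1977 CPM in HSM to 109 CPM with acetate (-4.19), and Cre04.g223350 (-2.69). Cre02.g144734, Cre02.g144700, Cre02.g144650 and Cre02.g144600 changed by -5.60, -4.48, -5.12 and -3.60. Cre02.g112266, Cre02.g112300, Cre02.g112333 and Cre02.g112366 changed by -2.92, -2.09, -5.43 and -5.42, the last 2 from 326 and 41.5 CPM. Cre10.g426800, the fifth of the largest falls, was followed by Cre10.g426850 and Cre10.g426900, at 4.94 ± 5.46 and 4.96 ± 6.03 CPM in HSM (SD, n = 3) and with at most 1 count in each acetate library. Cre16.g683400, Cre16.g683350 and Cre16.g683300 were higher by 2.51, 2.61 and 2.19, and Cre01.g009601, Cre01.g009650 and Cre01.g009676 by 2.41, 2.26 and 2.495. Whether reads that run on into a neighbor, shared sequence or shared control has a part in these runs was not tested.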
